A study of Mus musculus with 12 samples.

Results

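The vacuolar ATPase subunits examined here are 8 genes, Atp6v1a, Atp6v1b2, Atp6v1c1, Atp6v1d, Atp6v1e1, Atp6v1h, Atp6v0d1 and Atp6v0e, out of 8251 genes that probe sets with a single symbol named on the array. The members were found by gene symbol, and they had been selected on their signals in these same arrays. Which values chose them is not recorded, so their signals and changes are a description: calls are counted beside the share of all probe sets called, nothing is read from those counts, and no p-value of a member is printed. The 8 genes were read by 11 probe sets, of which 3 read Atp6v1a and 2 read Atp6v1b2, and all 11 passed the filter on low signals. Probe sets of 1 gene are repeated readings of 1 transcript pool and not replicates.

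Total RNA was measured on 12 arrays from mouse embryonic fibroblasts of genotype KSR1-/- on a DBA background, in 4 groups of 3 arrays. The first group expressed KSR1, H-RasV12 and GFP and is called the double line below. The second expressed KSR1 and GFP, the third H-RasV12 and GFP, and the fourth GFP alone. All groups therefore share the loss of the endogenous Ksr1 gene and the presence of GFP. KSR1 (kinase suppressor of Ras) is a scaffold for the Raf, MEK and ERK kinases, and H-RasV12 is an oncogenic, constitutively active form of the H-Ras GTPase. The labels give neither the promoter that drove the transgenes nor the number of clones or cultures behind each group. The spread between arrays, on which every error rests, may thus be technical, and the small number of arrays limits the precision. The values are MAS5 signals in arbitrary linear units, and signals of different probe sets are not set against each other, because each probe set has its own brightness.

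The vacuolar ATPase is a rotary proton pump that acidifies lysosomes, endosomes and secretory vesicles and, in some cells, the space outside the plasma membrane. Its V1 sector lies in the cytosol and hydrolyses ATP, and its V0 sector lies in the membrane and carries the protons. The sectors come apart and rejoin in response to nutrients and other signals, and the assembled pump also takes part in amino acid sensing by mTORC1 on the lysosome. In many cell types its genes are among the targets of the MiT family of transcription factors, which bind E-box sequences in the promoters of lysosomal genes.

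Promoter sequences are shown for 4 subunit genes because these genes took different courses across the groups and differ in whether they hold an E-box. Atp6v1a, a V1 member, and Atp6v0b, a V0 subunit outside the member list, are those of the measured subunit genes in the promoter table that hold one. Atp6v0d1, a V0 member, and Atp6v0e2, a V0 subunit outside the member list, hold none. The members Atp6v1d, Atp6v1e1 and Atp6v0e, whose mean signals were also highest in the double line, hold none either and are not shown. Each line holds the 250 bases before the annotated transcript start, 5′ to 3′ on the gene's strand, from RefSeq (GRCm38.p6), and capitals mark the E-box with the T before it (TCACGTG, read on both strands).
Atp6v1a: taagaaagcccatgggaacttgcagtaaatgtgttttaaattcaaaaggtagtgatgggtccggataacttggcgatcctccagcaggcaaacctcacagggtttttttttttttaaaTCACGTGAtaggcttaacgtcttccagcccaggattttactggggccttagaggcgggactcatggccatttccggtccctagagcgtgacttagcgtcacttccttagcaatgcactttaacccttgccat
Atp6v0b: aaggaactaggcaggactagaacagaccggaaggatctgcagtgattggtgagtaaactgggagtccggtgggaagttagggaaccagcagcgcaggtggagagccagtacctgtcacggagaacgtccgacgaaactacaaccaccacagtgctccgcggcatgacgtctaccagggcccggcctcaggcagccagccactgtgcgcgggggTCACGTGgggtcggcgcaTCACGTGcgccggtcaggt
Atp6v0d1: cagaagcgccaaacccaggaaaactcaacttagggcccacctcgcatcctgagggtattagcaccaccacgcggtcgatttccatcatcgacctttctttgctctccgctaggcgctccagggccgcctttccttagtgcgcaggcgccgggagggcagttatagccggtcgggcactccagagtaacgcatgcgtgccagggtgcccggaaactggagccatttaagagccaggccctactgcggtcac
Atp6v0e2: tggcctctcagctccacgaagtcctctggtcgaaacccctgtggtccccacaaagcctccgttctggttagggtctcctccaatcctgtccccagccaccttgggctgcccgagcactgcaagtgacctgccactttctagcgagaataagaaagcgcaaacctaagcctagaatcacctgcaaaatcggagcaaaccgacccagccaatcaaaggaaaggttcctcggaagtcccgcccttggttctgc
The Atp6v1a window is chr16:44139260-44139509 on the minus strand, and its E-box core CACGTG begins 131 bases before the start. The Atp6v0b window is chr4:117887330-117887579 on the minus strand, with cores that begin 36 and 18 bases before the start. The Atp6v0d1 window is chr8:105566065-105566314 on the minus strand, and the Atp6v0e2 window is chr6:48537319-48537568 on the plus strand. Of the 8 members, 5 were found in the RefSeq promoter table, and Atp6v1b2, Atp6v1c1 and Atp6v1h were not. CACGTG was found on either strand in 1 of these 5 windows and in 6.02% of all 32851 promoter windows of the same length. TCACGTG, which contains CACGTG, was likewise found in 1 of 5 and in 3.13% of all windows. The M-box TCATGTG was in 0 of 5 member windows and 3.25% of all, the ETS motif CCGGAAG in 1 of 5 (Atp6v1e1) and 6.91%, and the GC box GGGCGG in 3 of 5 (Atp6v1d, Atp6v1e1 and Atp6v0e) and 32.7%. These are matches of letters in a fixed window and say nothing of binding.

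Before the members, the arrays themselves were examined. On the Ksr1 probe set 92765_s_at, signals were 301, 262 and 141 on the double line arrays, 933, 1605 and 207 on the KSR1 arrays, 20.2, 32.2 and 14.2 on the H-RasV12 arrays, and 144, 21.1 and 37.5 on the GFP arrays. Ksr1 was thus brighter in the lines that carry it, except that replicate 3 of the double line lay just under replicate 1 of GFP. Replicates 1 and 2 of KSR1 were brighter than every double line array, and the part of this difference in the comparisons below was not tested. The other Ksr1 probe set, 92764_at, did not separate the lines with KSR1 from those without. The arrays numbered 1 of the double line and of GFP had low signals at the 3′ control probe set of beta-actin, 8629 and 7981, against 16680 to 26873 on the other 10 arrays. Of 10 fibroblast markers, 8 had a probe set past the filter, while Vim and Thy1 were below it. The summed marker signal ran from 20073 to 30999 in the double line, 31785 to 36321 in KSR1, 47228 to 64933 in H-RasV12 and 46616 to 62785 in GFP. Of 13 fibroblast probe sets, 2 were called lower in the double line than in KSR1, and 7 were lower than in H-RasV12 and 7 lower than in GFP. Of all tested probe sets, 6.92%, 7.71% and 7.93% were called lower in these comparisons. The part of the shift in fibroblast markers in the results below was not tested. In RNA from whole cultures, fewer cells of a type and less RNA per cell cannot be told apart. Macrophage markers (4 of 12 past the filter) summed to 1955 to 2252 in the double line, 2530 to 5126 in KSR1, 1673 to 1995 in H-RasV12 and 1484 to 2587 in GFP. All 4 tested probe sets were higher in KSR1 than in GFP (median log2 fold change 0.77). Of these, 1 was called, where 4.97% of all tested probe sets were called higher. All 4 were lower in the double line than in KSR1 (median -0.70), with 0 called. The defining macrophage genes Ptprc and Adgre1 were below the filter. Osteoclasts, which carry much vacuolar ATPase, were checked by 6 measured markers, of which 2 passed the filter. Their summed signal was 390 to 413 in the double line, 239 to 571 in KSR1, 370 to 521 in H-RasV12 and 342 to 559 in GFP, with overlap between the double line and every other group.

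The V1 members were highest in the double line. The catalytic and nucleotide-binding subunits and the C subunit stood 1.20 to 1.99 log2 units above the KSR1 line. For Atp6v1b2 and Atp6v1c1 the KSR1, H-RasV12 and GFP arrays overlapped. On the Atp6v1a probe set 95744_at, however, every H-RasV12 array was above every KSR1 array. The V0 members were not alike: for Atp6v0d1 the KSR1 line was low and the double line lay near H-RasV12 and GFP, while Atp6v0e had its highest mean in the double line.

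**Figure D1:**
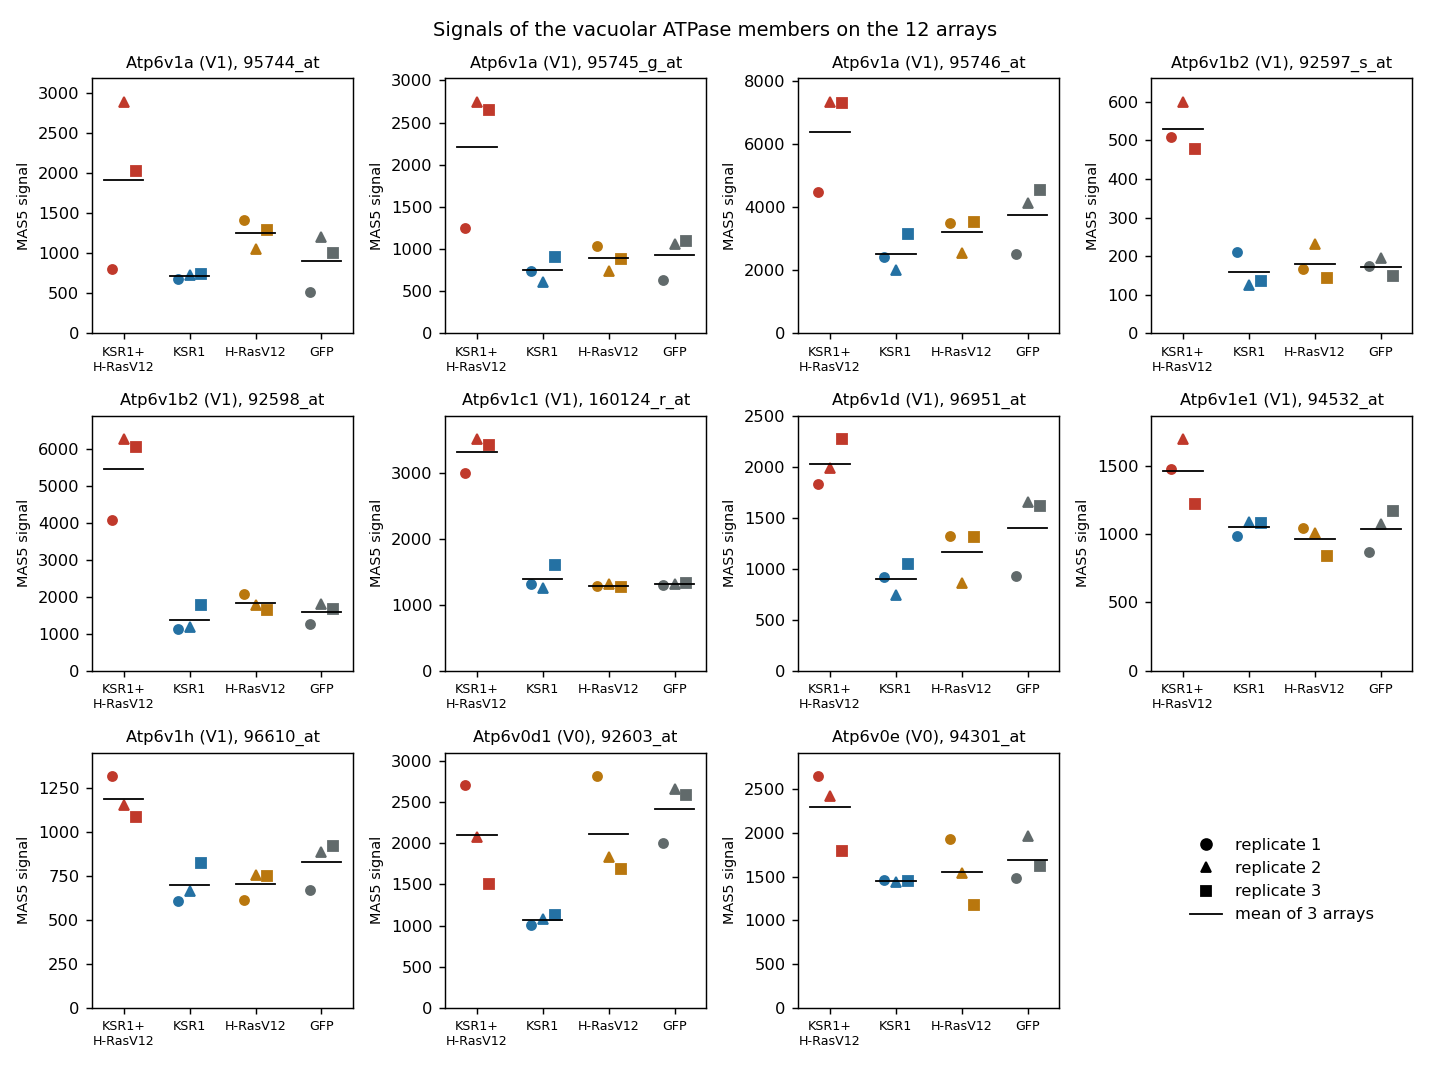
MAS5 signals (linear axis from 0) of the 11 member probe sets on the 12 arrays, by group; symbols give the replicate number and black lines the mean of 3 arrays. On the Atp6v1b2 and Atp6v1c1 probe sets every double line array lies above all 9 others, while the KSR1 arrays lie lowest for Atp6v0d1.

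Atp6v1b2 encodes the B subunit, which alternates with the A subunit in the ATP-hydrolysing head of V1. On probe set 92598_at its signals were 4074, 6269 and 6044 on the double line arrays, 1128, 1185 and 1763 on the KSR1 arrays, 2062, 1768 and 1641 on the H-RasV12 arrays, and 1258, 1808 and 1657 on the GFP arrays. The lowest double line array was above all 9 others, which overlapped among themselves. The log2 fold change of the double line was 1.99 ± 0.23 (SE, n = 3 arrays a group) against KSR1, 1.55 ± 0.23 against H-RasV12 and 1.77 ± 0.23 against GFP. The change against KSR1 ranked 72 from the top of the 6897 tested probe sets. The dimmer probe set 92597_s_at gave 510, 600 and 478 in the double line, 212, 126 and 137 in KSR1, 167, 232 and 145 in H-RasV12, and 175, 195 and 149 in GFP. The same separation is seen there, with log2 fold changes of 1.63 ± 0.25 against KSR1, 1.45 ± 0.25 against H-RasV12 and 1.49 ± 0.25 against GFP. That probe set exceeded the filter's signal on 6 arrays, of which 3 lay outside the double line.

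Atp6v1c1 encodes the C subunit, which holds the peripheral stalks to V0 and leaves the complex when the sectors separate. Its signals were 2992, 3516 and 3424 in the double line, 1319, 1259 and 1599 in KSR1, 1282, 1314 and 1269 in H-RasV12, and 1298, 1320 and 1332 in GFP. The double line arrays stood apart from the 9 others, and the H-RasV12 and GFP arrays spanned a narrow range. The log2 fold changes were 1.24 ± 0.15 against KSR1, 1.34 ± 0.15 against H-RasV12 and 1.31 ± 0.15 against GFP.

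Atp6v1a encodes the catalytic A subunit, and its 3 probe sets differed in how far the groups separated. On 95745_g_at the signals were 1249, 2749 and 2651 in the double line, 737, 614 and 902 in KSR1, 1040, 745 and 886 in H-RasV12, and 640, 1066 and 1097 in GFP. On 95746_at they were 4503, 7361 and 7309 in the double line, 2413, 2003 and 3174 in KSR1, 3513, 2557 and 3554 in H-RasV12, and 2531, 4156 and 4570 in GFP. Replicate 1 of the double line was the lowest of its group on both, and on 95746_at it lay just under the highest GFP array. On 95744_at the signals were 802, 2890 and 2028 in the double line, 677, 728 and 744 in KSR1, 1413, 1047 and 1295 in H-RasV12, and 515, 1199 and 1000 in GFP. There, replicate 1 of the double line lay below all H-RasV12 arrays, so that these groups overlapped. Against KSR1 the log2 fold changes were 1.20 ± 0.38, 1.46 ± 0.29 and 1.32 ± 0.27 for 95744_at, 95745_g_at and 95746_at. Against H-RasV12 they were 0.43 ± 0.38, 1.22 ± 0.29 and 0.97 ± 0.27 in the same order. The beta-actin 3′ control signal of that double line array was also low (8629), and its part in the Atp6v1a spread was not tested.

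Atp6v1d encodes the D subunit of the central rotor shaft. Its signals were 1828, 1986 and 2276 in the double line, 922, 738 and 1047 in KSR1, 1325, 862 and 1316 in H-RasV12, and 932, 1657 and 1611 in GFP. The double line was again above all other arrays, and the GFP group was the widest. The log2 fold change was 1.16 ± 0.24 against KSR1, 0.81 ± 0.24 against H-RasV12 and 0.57 ± 0.24 against GFP. Atp6v1h encodes the H subunit, which sits at the contact between the sectors and regulates ATP hydrolysis. Its signals were 1318, 1152 and 1085 in the double line, 605, 664 and 825 in KSR1, 611, 752 and 751 in H-RasV12, and 670, 887 and 920 in GFP. No array of another group reached the double line, and the log2 fold change was 0.75 ± 0.19 against KSR1, 0.73 ± 0.19 against H-RasV12 and 0.52 ± 0.19 against GFP. Atp6v1e1 encodes the E subunit of the peripheral stalks and had the smallest log2 fold change of the V1 members against KSR1 and GFP. Its signals were 1479, 1702 and 1221 in the double line, 988, 1094 and 1083 in KSR1, 1046, 1008 and 842 in H-RasV12, and 868, 1074 and 1173 in GFP. The double line did not overlap with any other group, although its replicate 3 came close to GFP. The log2 fold changes were 0.46 ± 0.18 against KSR1, 0.59 ± 0.18 against H-RasV12 and 0.49 ± 0.18 against GFP.

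Atp6v0d1 encodes the d subunit, which couples the rotor shaft of V1 to the proteolipid ring of V0. Its signals were 2711, 2073 and 1512 in the double line, 1002, 1084 and 1131 in KSR1, 2822, 1835 and 1694 in H-RasV12, and 2006, 2659 and 2593 in GFP. The KSR1 arrays were the lowest 3 of the 12, and the double line, H-RasV12 and GFP overlapped. The log2 fold change of the double line was 0.92 ± 0.23 against KSR1 but -0.02 ± 0.23 against H-RasV12 and -0.23 ± 0.23 against GFP. The KSR1 line in turn differed from GFP by -1.15 ± 0.23. Atp6v0e encodes the small membrane-embedded e subunit. Its signals were 2654, 2424 and 1799 in the double line, 1467, 1441 and 1452 in KSR1, 1937, 1541 and 1175 in H-RasV12, and 1485, 1971 and 1624 in GFP. The KSR1 arrays were nearly equal and lay below every double line and GFP array, while the double line overlapped with H-RasV12 and GFP. The log2 fold change of the double line was 0.63 ± 0.21 against KSR1, 0.57 ± 0.21 against H-RasV12 and 0.42 ± 0.21 against GFP.

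The mean levels of each member put the double line at the top for both Atp6v1b2 probe sets, all 3 Atp6v1a probe sets, Atp6v1c1, Atp6v1d, Atp6v1e1, Atp6v1h and Atp6v0e. Among the other 3 lines, the KSR1 mean was lowest on the probe sets of Atp6v1a, Atp6v1b2, Atp6v1d, Atp6v1h and Atp6v0e. It was the highest of them for Atp6v1c1 and Atp6v1e1. The neighbouring ranges of these lines mostly overlapped. Atp6v1b2 on 92598_at averaged 5462 ± 1207 in the double line, 1359 ± 351 in KSR1, 1824 ± 216 in H-RasV12 and 1574 ± 284 in GFP (SD, n = 3 each). Atp6v0d1 was the exception, at 2098 ± 600 in the double line, 1072 ± 65.1 in KSR1, 2117 ± 614 in H-RasV12 and 2419 ± 360 in GFP.

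The first comparison is between lines that differ in H-RasV12 by label and both carry KSR1. Their Ksr1 signals also differed, as given above, so it is not a comparison at equal KSR1. A probe set was called when its limma p-value, adjusted over all 6897 tested probe sets by the Benjamini-Hochberg method, was under 0.05. Here 9 of 11 member probe sets were called higher and 0 lower, where 8.16% of all tested probe sets were called higher and 6.92% lower. Since the members were chosen on these arrays, nothing is read from that count. The uncalled ones were those of Atp6v1e1 and Atp6v0e. The median log2 fold change was 1.20 over the member probe sets and -0.07 over all probe sets tested. All 9 V1 and both V0 member probe sets had every double line array above every KSR1 array, as had 13.9% of all tested probe sets. The Atp6v1a probe set 95744_at was called under 8 of 21 alternative settings, and Atp6v0d1 lost its call when replicate 1 of KSR1 or replicate 1 or 2 of the double line was left out. With replicates 2 and 3 alone, a setting added after the data were seen, 7 of 11 were called, and 14.9% of all.

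**Figure D2:**
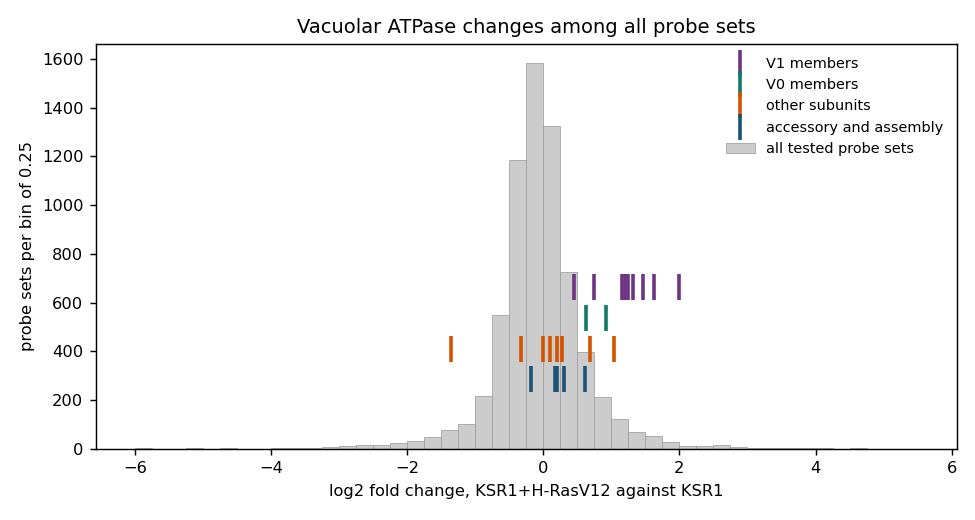
Number of probe sets (vertical axis, linear) per bin of 0.25 in log2 fold change of the double line against KSR1 (horizontal axis), with ticks for vacuolar ATPase probe sets at arbitrary height. The V1 members run from 0.46 to 1.99, while the other subunits range from -1.36 to 1.03.

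The other vacuolar ATPase genes were taken from a list of subunits and assembly factors and not from the member list. The array named 6 more subunit genes and 6 accessory or assembly genes, and 13 of their probe sets were tested. Against KSR1, 2 were called higher and 1 lower in the double line, where 8.16% of all tested probe sets were called higher and 6.92% lower. Atp6v1g1, a peripheral stalk subunit and the remaining V1 gene measured, had signals of 9414, 10896 and 8651 in the double line, 6744, 3081 and 4955 in KSR1, 5532, 5173 and 6020 in H-RasV12, and 6945, 6068 and 7606 in GFP. All double line arrays were above the rest, and Atp6v1g1 rose by 1.03 ± 0.23 on the log2 scale against KSR1 (limma adjusted p = 0.0077). Tmem199, an assembly factor of V0 in the endoplasmic reticulum, had signals of 827, 701 and 775 in the double line, 528, 432 and 517 in KSR1, 366, 319 and 344 in H-RasV12, and 341, 416 and 342 in GFP. Its change against KSR1 was 0.62 ± 0.17 (limma adjusted p = 0.024), a call kept under 16 of 21 alternatives.

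Atp6v0e2, the other isoform of the e subunit, went the opposite way from Atp6v0e. Its signals were 525, 1082 and 904 in the double line, 2037, 2397 and 1883 in KSR1, 583, 985 and 1256 in H-RasV12, and 875, 1239 and 1212 in GFP. The KSR1 arrays were above all others, where for Atp6v0d1 they were below all others. Atp6v0e2 was lower in the double line than in KSR1 by a log2 fold change of -1.36 ± 0.29 (limma adjusted p = 0.0049). In KSR1 against GFP its log2 fold change was 0.92 (adjusted p = 0.054), short of the threshold. The a subunit isoforms, which form the proton channels with the proteolipid ring, were not called in any comparison: Atp6v0a1, Atp6v0a2 on its 3 probe sets, and Tcirg1.

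By sector, 6 of the 7 measured V1 genes (Atp6v1a, Atp6v1b2, Atp6v1c1, Atp6v1d, Atp6v1g1 and Atp6v1h) were called higher in the double line than in KSR1. Of the 7 measured V0 genes, Atp6v0d1 was called higher and Atp6v0e2 lower. The median log2 fold change was 1.22 over the 10 V1 probe sets and 0.21 over the 9 tested V0 probe sets. Most V1 genes are members, so the V1 figures carry the same choice.

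**Figure D3:**
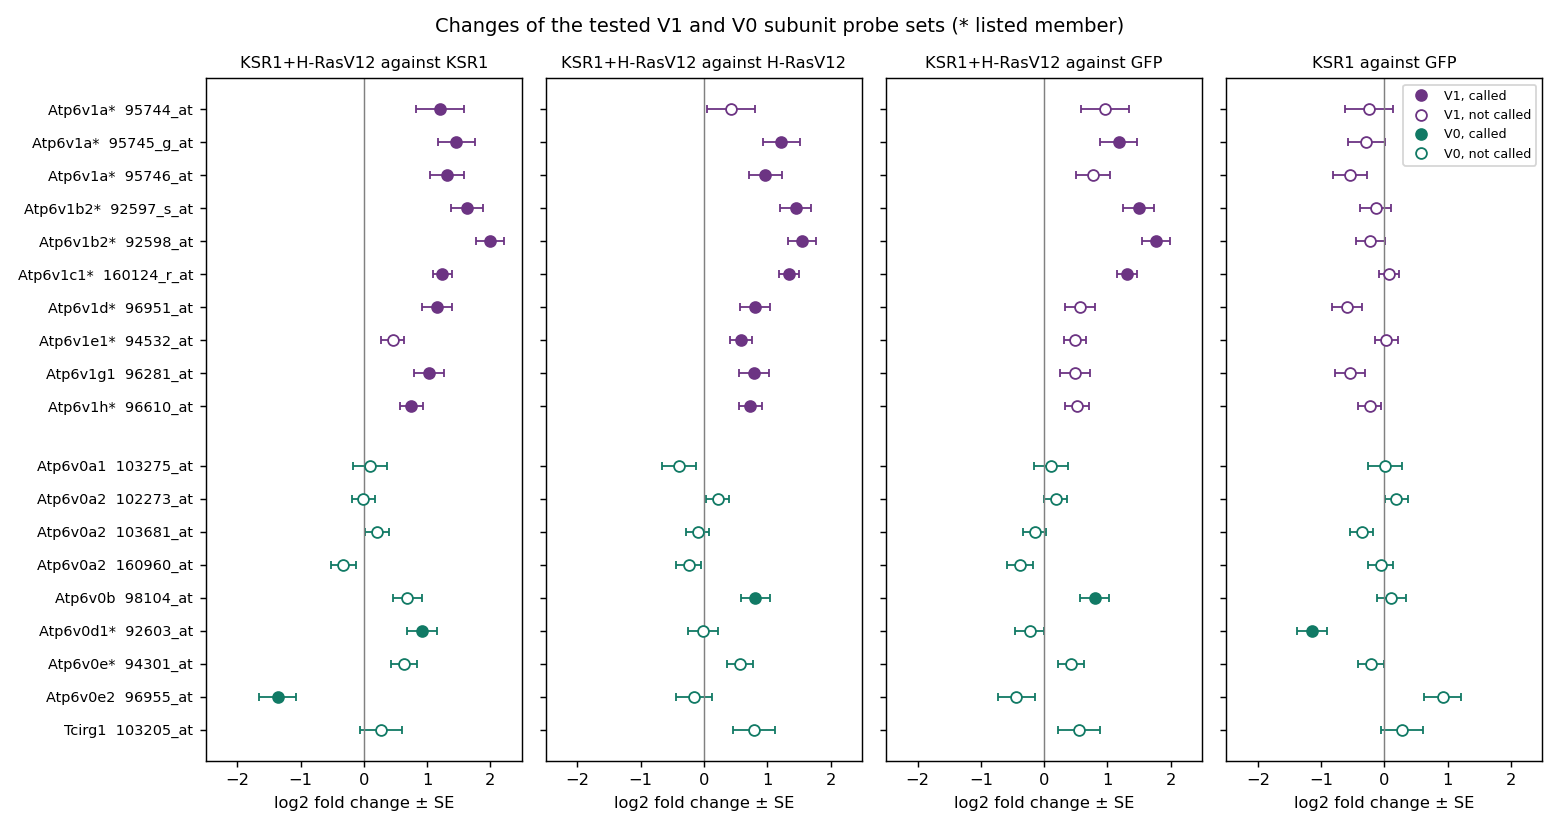
Log2 fold change ± SE (limma, n = 3 arrays a group) of the 19 tested subunit probe sets in 4 comparisons, with V1 in purple above and V0 in green below; filled points were called and asterisks mark listed members. All V1 points lie right of 0 in the first 3 panels, and among V0 genes only Atp6v0d1 is called in KSR1 against GFP.

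The comparison of the double line with H-RasV12 is between lines that differ in KSR1 by label and both carry H-RasV12. Here 8 of 11 member probe sets were called higher and 0 lower, where 7.10% of all tested probe sets were called higher and 7.71% lower. All 8 were V1 probe sets, and both V0 members and Atp6v1a on 95744_at were not called. The median log2 fold change of the members was 0.81. Every double line array was above every H-RasV12 array on 8 of the 9 V1 and 0 of the 2 V0 member probe sets, and on 13.8% of all tested probe sets. Leaving out replicate 2 of the double line left 4 called member probe sets, and leaving out replicate 2 of H-RasV12 left 5. In each of these settings 11.4% of all tested probe sets were called. Of the other 13 probe sets, 3 rose: Tmem199 by 1.11 ± 0.17 (limma adjusted p = 0.00041), Atp6v0b by 0.81 ± 0.23 (adjusted p = 0.028) and Atp6v1g1 by 0.79 (adjusted p = 0.036). Without replicate 1 or 2 of the double line, or replicate 2 or 3 of H-RasV12, 1 of these 3 calls was left.

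Atp6v0b encodes a proteolipid of the V0 ring. Its signals were 4844, 3144 and 2616 in the double line, 2067, 1986 and 2285 in KSR1, 2488, 1874 and 1566 in H-RasV12, and 2094, 1677 and 2123 in GFP. All double line arrays were above the others, and replicate 1 was far above. Against KSR1 its log2 fold change was 0.69 (limma adjusted p = 0.059).

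Against GFP, the double line differs by both transgenes. There 4 of 11 member probe sets were called higher and 0 lower, where 7.71% of all were called higher and 7.93% lower. These were both Atp6v1b2 probe sets, Atp6v1c1 and Atp6v1a on 95745_g_at, with a log2 fold change of 1.18 ± 0.29 for the last. The median over the members was 0.77. Every double line array was above every GFP array on 7 of 9 V1 and 0 of 2 V0 member probe sets, and on 13.9% of all tested probe sets. The 3 arrays of GFP spread more widely than those of KSR1 or H-RasV12 for several V1 members, with replicate 1 lowest for all 3 Atp6v1a probe sets and for Atp6v1d. That array's beta-actin 3′ control signal was 7981, and its part in the spread was not tested. Without replicate 1 of the double line, 6 member probe sets were called, and 16.9% of all tested probe sets. Of the other probe sets, Tmem199 rose by 1.02 ± 0.17 (limma adjusted p = 0.00072) and Atp6v0b by 0.80 ± 0.23 (adjusted p = 0.028). Only 1 of the 2 was left without replicate 1 or 2 of the double line or replicate 2 or 3 of GFP.

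KSR1 against GFP compares lines that differ in KSR1 by label, without the oncogene. Here 0 of 11 member probe sets were called higher and 1 lower, where 4.97% of all were called higher and 6.81% lower. The called one was Atp6v0d1 (-1.15 ± 0.23), which kept its call under all 21 alternatives. Every KSR1 array was below every GFP array on both V0 and 0 of 9 V1 member probe sets, and on 15.8% of all tested probe sets. Without replicate 1 of GFP, 2 member probe sets were called, and 10.8% of all tested probe sets. None of the other 13 was called, while 4 had an unadjusted p under 0.05.

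H-RasV12 against GFP compares lines that differ in the oncogene by label, without KSR1. Here 0 of 11 member probe sets were called, none of them with an unadjusted p under 0.05, where 0% of all tested probe sets were called higher and 0.0725% lower. The log2 fold changes of Atp6v1b2 were 0.22 ± 0.23 on 92598_at and 0.04 ± 0.25 on 92597_s_at, and that of Atp6v1c1 was -0.03 ± 0.15. None of the 13 other vacuolar ATPase probe sets was called by limma either, again with 0 at an unadjusted p under 0.05.

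The interaction sets the H-RasV12 response with KSR1 against the response without it. Here 7 of 11 member probe sets were called higher and 0 lower, where 4.16% of all tested probe sets were called higher and 3.54% lower. They were Atp6v1b2 on both probe sets (1.77 and 1.59), Atp6v1a on 95745_g_at and 95746_at (1.51 each), Atp6v1d (1.40), Atp6v1c1 (1.27) and Atp6v1h (0.97). Atp6v0d1, at 1.13, and Atp6v0e, at 0.77, were not called. Without replicate 2 or 3 of GFP, replicate 2 of H-RasV12 or replicate 2 of KSR1, 3 member probe sets were called. Without replicate 2 of the double line, 4 were. In those settings 4.92% to 5.73% of all tested probe sets were called, against 7.70% with all arrays. Atp6v1g1 was the 1 call among the other 13, with an interaction of 1.33 ± 0.33 (limma adjusted p = 0.024), which was lost without replicate 3 of GFP, replicate 2 of H-RasV12 or replicate 2 of the double line, when 0 of the 13 were called.

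The sectors were then set against each other on each array, as the mean log2 difference of a sector's genes from their GFP means. The probe sets of a gene were averaged first. Over the V1 members this was 0.74, 1.07 and 0.94 on the double line arrays, -0.25, -0.34 and -0.03 on the KSR1 arrays, 0.00, -0.11 and -0.07 on the H-RasV12 arrays, and -0.30, 0.16 and 0.14 on the GFP arrays. Over the 2 V0 members it was 0.41, 0.16 and -0.28 on the double line arrays, -0.72, -0.68 and -0.64 on the KSR1 arrays, 0.22, -0.25 and -0.50 on the H-RasV12 arrays, and -0.22, 0.19 and 0.03 on the GFP arrays. The V1 level thus separated the double line from the other 3 groups, and the V0 level separated KSR1 from them. Within the double line, replicate 1 was lowest for V1 and highest for V0.

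**Figure D4:**
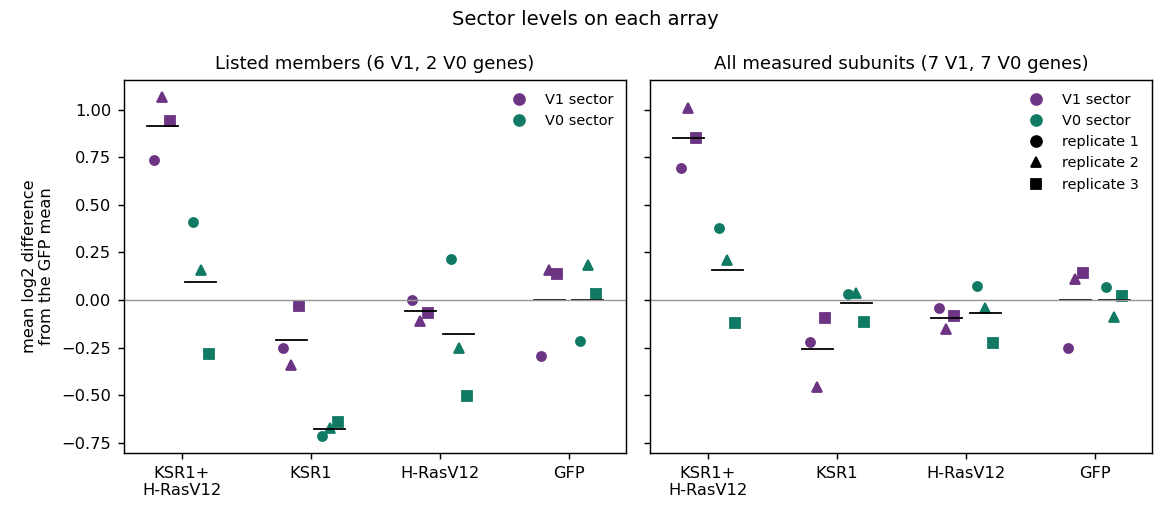
Mean log2 difference from the GFP mean (vertical axis) over V1 genes (purple) and V0 genes (green) on each array. Panels show the members and all measured subunits, symbols give the replicate and black lines the mean of 3 arrays. V1 is high on all 3 double line arrays in both panels, while the low V0 level of the KSR1 line is seen for the members and not for all V0 subunits.

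Over all measured subunits the V1 level was 0.85 ± 0.16 in the double line, -0.26 ± 0.18 in KSR1 and -0.09 ± 0.06 in H-RasV12, relative to GFP (SD, n = 3 each). The V0 level over all measured subunits was 0.16 ± 0.26 in the double line, -0.02 ± 0.08 in KSR1 and -0.07 ± 0.15 in H-RasV12. The difference between V1 and V0 levels over all subunits was therefore 0.70 ± 0.34 in the double line, -0.24 ± 0.26 in KSR1 and -0.03 ± 0.15 in H-RasV12, with 0 ± 0.28 in GFP. Between the double line and KSR1 it differed by 0.94, and by 0.80 to 1.13 when any 1 array was left out. Over the members alone it differed by 0.35 and by 0.15 to 0.60 when any 1 array was left out. In KSR1 against GFP the V0 members had log2 fold changes of -1.15 (Atp6v0d1) and -0.21 (Atp6v0e). The size of the contrast between sectors thus depends on which V0 genes are counted, with the KSR1 line lowest of the 4 for Atp6v0d1 and highest for Atp6v0e2. It also carries the choice of members on these arrays. Of the 7 measured V1 genes 6 are members, and of the 7 measured V0 genes 2 are.

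The mean profile of the member genes over the 12 arrays was compared with all other tested genes by Pearson's correlation. It is a description over arrays that share 4 groups. Within the members, the correlation with that profile ran from 0.51 for Atp6v0d1 to 0.96 for Atp6v1b2 on 92598_at. The 6 genes outside the vacuolar ATPase lists with the highest values were Hadhb (0.973), Atp5o (0.971), Uqcrb (0.968), Slc6a8 (0.966), Npc1 (0.963) and Adm (0.961). Hadhb is a subunit of the mitochondrial trifunctional protein of fatty acid oxidation, Atp5o a stalk subunit of the mitochondrial ATP synthase and Uqcrb a subunit of the cytochrome bc1 complex. Slc6a8 imports creatine, Npc1 exports cholesterol from lysosomes, and Adm encodes the peptide adrenomedullin. Hadhb signals were 2786, 3561 and 3287 in the double line, 852, 922 and 1142 in KSR1, 1297, 1153 and 1120 in H-RasV12, and 1089, 1487 and 1176 in GFP. Npc1 signals were 1252, 1321 and 1083 in the double line, 450, 349 and 383 in KSR1, 467, 441 and 462 in H-RasV12, and 362, 532 and 533 in GFP. As for Atp6v1b2, the 3 double line arrays were above the other 9. Because these genes were picked for likeness, no test is given for them.

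Related gene lists were examined for the double line against KSR1, where 8.16% of all tested probe sets were called higher and 6.92% lower. The mitochondrial F-type ATP synthase, a rotary relative of the vacuolar enzyme that makes ATP, had 5 of 16 probe sets called higher and 0 lower, with a median log2 fold change of 0.39. Atp5o, which is in that count, rose by 1.29 ± 0.18 and has no p-value here because it was picked above for likeness to the members. Atp5c1, the central shaft subunit, rose by 1.01 ± 0.26 on 92799_g_at (limma adjusted p = 0.016), and Atp5k by 0.75 ± 0.21 (adjusted p = 0.027). The Ragulator and Rag GTPases, which dock with the vacuolar ATPase on the lysosome in amino acid sensing, had 2 of 9 probe sets called higher, and 1 of these, that of Rragd, passed the filter through the double line arrays alone. The GTPase gene Rragd had signals of 441, 578 and 490 in the double line, 160, 85.5 and 79.5 in KSR1, 42.4, 38.6 and 19.5 in H-RasV12, and 70.4, 47.6 and 22.2 in GFP. Its log2 fold change against KSR1 was 2.05 ± 0.37, given without a p-value because a probe set that enters by the group where it is high had to differ. The Ragulator subunit Lamtor3, above the filter's signal on all 12 arrays, rose by 0.90 ± 0.22 (limma adjusted p = 0.013).

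Of the MiT transcription factors, Mitf passed the filter and Tfeb did not. Mitf signals were 417, 2262 and 642 in the double line, 70.1, 170 and 144 in KSR1, 61.2, 73.8 and 13.4 in H-RasV12, and 51.8, 57.7 and 15.4 in GFP. All double line arrays were above the others, with replicate 2 far above. Its log2 fold changes were 2.60 ± 0.56 against KSR1, 3.71 ± 0.56 against H-RasV12 and 3.83 ± 0.56 against GFP. Mitf passed the filter through the double line arrays alone, so no p-value is given.

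Among the ion carriers and proton suppliers that work beside the pump, 2 of 10 probe sets were called higher in the double line than in KSR1. Of all tested probe sets, 8.16% were. Car2, a carbonic anhydrase that yields protons from carbon dioxide, had signals of 222, 347 and 374 in the double line, 88.7, 63.7 and 57.3 in KSR1, 70.6, 115 and 107 in H-RasV12, and 116, 94.9 and 89.3 in GFP. Its log2 fold change was 1.85 ± 0.30, without a p-value because it too passed the filter through the double line arrays alone. The chloride and proton exchanger gene Clcn5 rose by 1.05 ± 0.24 (limma adjusted p = 0.0090). Clcn3, another such exchanger, was called higher in KSR1 than in GFP on 4 probe sets, with log2 fold changes from 1.47 to 1.95. The same 4 were called higher in the double line than in GFP. Only 102786_at was above the filter's signal on all 12 arrays. Its signals were 841, 1868 and 1637 in the double line, 1198, 1280 and 1425 in KSR1, 504, 628 and 701 in H-RasV12, and 340, 286 and 350 in GFP. The H-RasV12 arrays were thus also above the GFP arrays, although this was not called. The other Clcn3 probe sets, 94463_at, 94464_at and 94465_g_at, passed the filter through KSR1 and double line arrays alone, so nothing is read from their calls. Car2 also serves osteoclasts. Of the 2 osteoclast markers past the filter, Nfatc1 had a log2 fold change of 1.47 ± 0.34 against KSR1. Tnfrsf11a had one of -0.24 ± 0.28 (limma adjusted p = 0.63). Nfatc1 has no p-value because it passed the filter through double line and H-RasV12 arrays, with no KSR1 or GFP array above it. Nfatc1 averaged 144 ± 42.2 in the double line, 38.3 ± 20.0 in KSR1, 177 ± 48.7 in H-RasV12 and 154 ± 24.3 in GFP (SD, n = 3 each), so that the KSR1 line was low. The osteoclast markers Calcr and Acp5 were below the filter.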

How the data were processed

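The authors deposited 1 table of MAS5 signals, per the submitters' processing notes, and these deposited intensities are linear and given per probe set. The MAS5 version is not given in the sources used here. The 2% trimmed mean was 500.3 on every array, and arrays were not rescaled. Of 12488 probe sets, 66 controls were left out. Of the rest, 10833 had 1 gene symbol in the platform annotation, 396 had several and 1193 were unnamed here. A pseudocount of 23 was added before taking log2, which understates changes of dim probe sets, and 6897 probe sets above 181.4 on at least 3 of 12 arrays were tested. One limma fit (3.58.1, R 4.3.3) of 4 group means, with 8 residual degrees of freedom, an intensity trend and two-sided tests, gave all comparisons, with Benjamini-Hochberg adjustment over the 6897. The method was tested on simulated data. Tables were made in Python 3.11.15.

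The members and the gene lists were chosen with earlier results of these data known. The text names every member probe set, each other vacuolar ATPase gene called in any comparison, the 6 genes most like the member profile, Ksr1, and up to 3 called genes of each further list in the comparison described. Others that are named, such as Clcn3, Nfatc1, Tnfrsf11a, Calcr, Acp5 and the array controls, were picked once their values had been seen. The suffixes _s_at, _r_at and _g_at mark probe sets designed under relaxed rules, which may also read similar transcripts. The alternatives were other pseudocounts, no filter, median centring, quantile normalization, no trend, a replicate block, fits of only the groups compared, and leaving out each array. Of the accessory list, Ccdc115 was below the filter, and Atp6ap1, Atp6ap2, Rogdi and Rnasek were not called.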

Additional observations from a re-analysis of the deposited data

Results flagged for a closer look

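Limma's interaction term sets the H-RasV12 response in cells with KSR1 against that in cells without it. It was called higher for 7 of 11 member probe sets and 1 of 13 other vacuolar ATPase probe sets. Of all tested probe sets, 4.16% were called higher and 3.54% lower. These 8 were all of the V1 sector, to which 9 of the 11 member probe sets belong. The differences, as log2 response with KSR1 minus log2 response without, were 1.77 for Atp6v1b2 on 92598_at, 1.59 for Atp6v1b2 on 92597_s_at, 1.51 for Atp6v1a on 95745_g_at, 1.51 for Atp6v1a on 95746_at, 1.40 for Atp6v1d, 1.27 for Atp6v1c1, 0.97 for Atp6v1h and 1.33 for Atp6v1g1. Of these, 7 belong to the members, which were chosen on these arrays, and their values are a description. Atp6v1g1 is the 1 from outside the members. With a replicate block the same 8 were called, together with Atp6v0d1 (1.13) and Atp6v0e2 (-1.08) of the V0 sector. That block also raised the share of all tested probe sets called in the interaction from 7.70% to 10.7%. The calls of both Atp6v1b2 probe sets and of Atp6v1c1 were kept under all 20 alternatives, and that of Atp6v1h under 7 of 20.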

How the results depend on the processing

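Counts of called member probe sets in the 6 comparisons (the double line against KSR1, H-RasV12 and GFP, KSR1 against GFP, H-RasV12 against GFP, and the interaction) were 9, 8, 4, 1, 0 and 7, and with a replicate block they were 10, 8, 5, 1, 0 and 8. Of all tested probe sets, 15.1%, 14.8%, 15.6%, 11.8%, 0.0725% and 7.70% were called. With the block these shares were 18.7%, 18.3%, 19.1%, 15.2%, 0.145% and 10.7%. Leaving out 1 array at a time gave member counts of 6 to 9, 4 to 8, 3 to 6, 1 to 2, 0 to 0 and 3 to 8. The shares of all then ran from 10.1% to 17.1%, 10.5% to 16.4%, 10.7% to 16.9%, 6.99% to 13.5%, 0.0145% to 0.333% and 4.92% to 9.84%. For the 13 other vacuolar ATPase probe sets the ranges of counts were 2 to 3, 1 to 3, 1 to 2, 0 to 1, 0 to 0 and 0 to 2. Of those, 1 was called in the double line against GFP, in place of 2, with only the groups compared or with replicates 2 and 3 alone, a setting added after the data were seen. In KSR1 against GFP, 1 was called, in place of 0, with the replicate block, a pseudocount of 100, quantile normalization, only the groups compared, or replicates 2 and 3 alone. In the interaction, 2 were called with the replicate block (Atp6v1g1 and Atp6v0e2) and 0 without the filter, in place of 1. The causes were not tested. No fold change named in the report that was called changed sign under any of these settings. Same-numbered arrays correlated in their deviations from group means at over 0.1 in 13 of 18 pairs (-0.02 to 0.51), and 10 of 12 arrays correlated best with their own number. This is a hint of shared batches from the data; the numbers were not taken as pairs because the labels give no such batch and not every pair exceeded 0.1. Median centring moved the median log2 fold change of all probe sets from -0.07 to 0.09 in the double line against KSR1, and the called probe sets there from 563 higher and 477 lower to 701 and 308. It moved those of the interaction from 287 and 244 to 355 and 161, and those of H-RasV12 against GFP from 0 and 5 to 1 and 5. The sector differences between the double line and KSR1 kept their direction, at 1.05 to 1.21 for V1 members, 0.61 to 0.96 for V0 members, 1.01 to 1.19 for all V1 and 0.06 to 0.31 for all V0 subunits without any 1 array. Dim probe sets limit what can be seen for Atp6v0a1 on 96000_at, Atp6ap1 on 161806_r_at, Ccdc115 and Rnasek on 161919_r_at, which were below the filter.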
